A study of Mus musculus with 11 samples.

Results

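FSP, the abbreviation used here for Wulingsan, a traditional Chinese powder of herbs with the fungus Poria, was compared with a normal diet (ND, as read from the label) in mouse small intestine, over every gene whose expression averaged at least 1 FPKM in the 4 FSP and 3 ND libraries. FPKM is the number of fragments of a gene, scaled by the length of the gene and by the total of the library. Of 24250 genes listed, 10371 met that rule and were tested. The third group of the series, HFD (read as a high-fat diet, 4 libraries), entered the same fit, and its levels stand beside those of FSP where they help to place a value. FSP mice are described by the preparation alone: no label says which diet they ate, while obesity is named in the title of the series. Age, sex, strain, dose, duration and the stretch of small intestine were not given in the sources used here. Nothing says that each library is a different animal, so the p-values cover only the spread among these libraries, and that spread may be technical.

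The small intestine takes up fat, sterols, vitamins, nucleosides and sugars through its enterocytes, and it packs absorbed fat into chylomicrons for the lymph. Its upper stretch specialises in fat, iron and folate, and its lower stretch, the ileum, recovers bile acids and stands closest to the gut microbes. Gip encodes gastric inhibitory polypeptide, a hormone that K cells of the upper stretch release when nutrients, fat above all, arrive. Enterocytes also form the barrier to the lumen, through tight junctions, mucus, antimicrobial proteins and interferon-dependent defence.

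By limma on log2(FPKM + 1) with Benjamini-Hochberg adjustment over all tested genes, 123 genes passed an adjusted p of 0.05 (1.19% of those tested), 77 higher in FSP (0.742%) and 46 lower (0.444%). In all 123 the FSP and ND libraries did not overlap. Over all tested genes every FSP library lay above every ND library in 558 (5.38%) and below in 1137 (11%), and 1505 genes (14.5%) had an unadjusted p under 0.05. The median log2 change of all genes was −0.07, and 62.7% of them lay below 0. The 95% interval of a gene's log2 change had a median half-width of 0.377, and in 8851 genes (85.3%) it lay within a log2 change of 1 in either direction. Another 212 genes had a fitted change beyond 1 and did not pass. With each library rescaled to an equal total without mitochondrially encoded genes, 76 genes were higher and 83 lower, so the balance of the 2 directions depends on the scaling. Of the 123 calls, 62 held under each of 4 other scalings.

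The libraries held about 3.52e+07 to 3.84e+07 fragments in ND and FSP. The 20 markers of absorptive enterocytes summed to 30674 to 48932 FPKM in ND and 56036 to 85503 in FSP, without overlap. Of these 20, 3 were higher (Apoa4, Rbp2 and Nt5e), and 16 had a log2 change above 0 (median 0.49). The sum weighs abundant genes most, Apoa4 and Rbp2 among them (means of 1430 and 1601 FPKM in ND, 11145 and 6141 in FSP). In 11 of the 20 every FSP library lay above every ND library, against 5.38% of all tested genes. Some enterocyte markers overlapped between groups. Fabp2 was at 16208 to 23695 FPKM in ND and 20186 to 36945 in FSP, Anpep at 2134 to 2223 and 1704 to 2457, and Sis at 623 to 701 and 458 to 627. The 9 colon genes in the table summed to 187 to 351 FPKM in ND and 65.3 to 144 in FSP, again without overlap. All 4 tested colon genes had a log2 change below 0 (median −1.71), and Cyp2c55 passed, while the colon markers Car1 and Aqp8 stayed at or below 0.0906 FPKM in ND and FSP. The part of these markers in the other results was not tested. A position score, the mean log2(FPKM + 1) of 16 distal minus that of 11 proximal small intestine genes, was 2.67, 1.42 and −0.13 in ND 1 to 3 and −0.00, 0.02, −1.42 and 0.66 in FSP 1 to 4, so ND 1 and ND 2 lay on the distal side of every FSP library and ND 3 did not. No label says where the pieces were cut. The score comes from expression alone, and it was −1.80 to −2.92 in HFD, below every ND and FSP library. The place of the cut and a difference of these genes between groups therefore cannot be told apart. The calls leaned on ND 1 and ND 2: 19 of the 123 remained without ND 1, 16 without ND 2 and 72 without ND 3, and 39, 78, 76 and 88 remained without FSP 1, FSP 2, FSP 3 and FSP 4. With the position score as a covariate 12 genes were higher and 5 lower. Of the 11 proximal genes of the score 2 were themselves called higher, and of the 16 distal genes 1 was called lower. The score thus holds part of the difference between FSP and ND, and some shrinkage in that fit may be built in. FSP was also tabulated over a gene set with 641 genes that the single-library tables of ND and HFD lack, none of them tested here, so a separate tabulation of FSP and the group itself cannot be told apart.

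**Figure D1:**
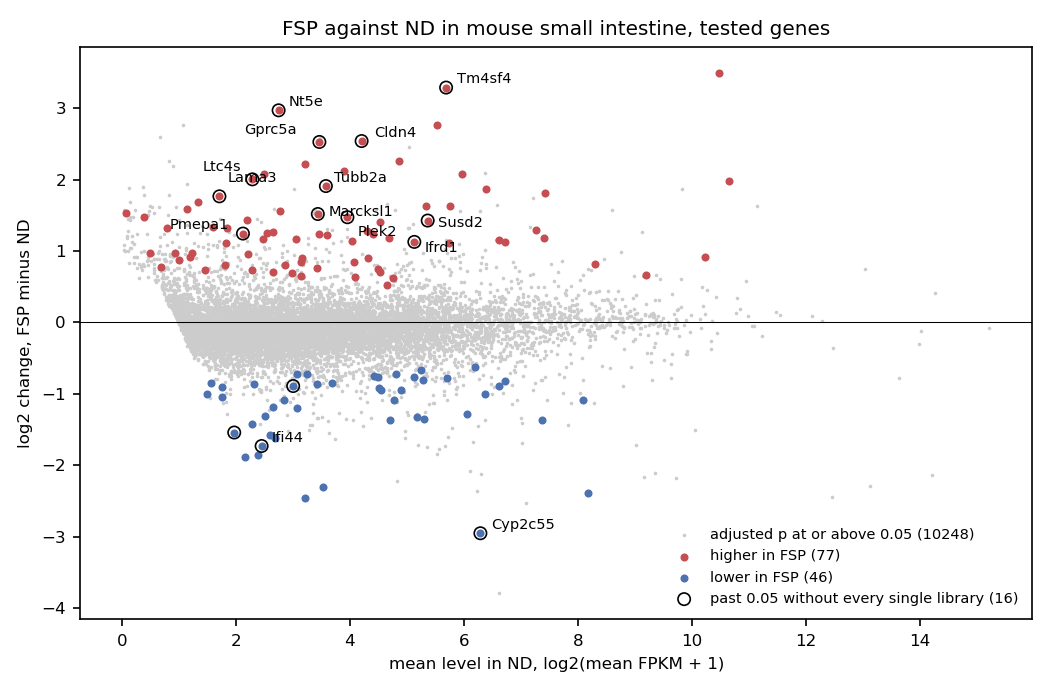
Log2 change (FSP minus ND, vertical axis) of each of 10371 tested genes against its mean level in ND (horizontal axis, log2 of mean FPKM plus 1). Red and blue points passed an adjusted p of 0.05, and rings mark the 16 genes that passed without each single library, of which the 14 with an assigned symbol are named.

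The firmest part of the comparison is a set of 16 genes that stayed past the threshold without each of the 7 libraries in turn and under each of the 4 other scalings. They were singled out after their values were seen. Those with an assigned symbol are 12 genes higher in FSP (Tm4sf4, Nt5e, Cldn4, Gprc5a, Ltc4s, Tubb2a, Lama3, Marcksl1, Plek2, Susd2, Pmepa1 and Ifrd1) and 2 lower (Cyp2c55 and Ifi44). The other 2, Gm42113 and 9130008F23Rik, are unnamed gene models that were lower. With the position score as a covariate Plek2 (adjusted p = 0.0534), Susd2 and Ifi44 (0.0727 each) no longer passed, and the other 13 did. Against HFD, FSP passed only in Marcksl1 and Ltc4s among the 16, by limma in the same fit. In the rest the adjusted p against HFD ran from 0.0691 (Lama3) to 0.981 (Plek2), so these data do not set FSP apart from HFD in them.

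Of these genes, 5 that were higher encode proteins of the cell surface: Cldn4, Tm4sf4, Gprc5a, Nt5e and Susd2. Cldn4, a claudin of tight junctions (chromosome 5, 134945123 to 134946934, GRCm38), stood at 14.5, 16.8 and 21.1 FPKM in ND and at 106, 137, 95.2 and 88.2 in FSP, with HFD at 78.0 to 132. Every FSP library lay far above the highest ND library (log2 change 2.54, SE 0.21, limma adjusted p = 0.000209). Cldn4 was the only 1 of 26 tested genes of tight junctions and adhesion to pass, and the list's median log2 change was 0.05. The stretch upstream of Cldn4 is shown because it holds 2 copies of the AP-1 site, in capitals, at 240 and 158 bases before the start (RefSeq, GRCm38.p6, minus strand, chr5:134946885-134947184).
Cldn4: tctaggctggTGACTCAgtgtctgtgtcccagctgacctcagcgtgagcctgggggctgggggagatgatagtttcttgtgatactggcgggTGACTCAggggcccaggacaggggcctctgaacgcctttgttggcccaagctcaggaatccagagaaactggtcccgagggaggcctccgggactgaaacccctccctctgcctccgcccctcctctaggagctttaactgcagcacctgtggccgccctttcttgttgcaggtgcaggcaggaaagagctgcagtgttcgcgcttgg
Tm4sf4, a membrane protein of the tetraspanin-like L6 family, read 50.6, 54.4 and 46.9 FPKM in ND and 833, 370.3, 412 and 501 in FSP, a 10.4-fold difference of means (log2 change 3.29, SE 0.26, limma adjusted p = 0.000209). Gprc5a, an orphan receptor induced by retinoic acid, had the smallest adjusted p of the comparison, at 8.85, 9.84 and 11.5 FPKM in ND against 65.9, 60.9, 66.1 and 57.0 in FSP (limma adjusted p = 1.63e-05). Nt5e, the ectonucleotidase that makes adenosine from AMP, stood at 3.61, 5.54 and 8.04 FPKM in ND and at 37.7, 45.7, 90.1 and 39.4 in FSP (limma adjusted p = 0.00435). FSP 3 was the high library for Nt5e. Susd2, a surface protein with a sushi domain, averaged 40.3 ± 14.0 FPKM in ND (SD, n = 3) and 106 ± 12.7 in FSP (SD, n = 4), and its adjusted p came closest to the threshold when ND or FSP libraries were left out, at up to 0.0495.

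Lama3, Tubb2a, Plek2 and Marcksl1, also among the 16, encode proteins of the basement membrane or the cytoskeleton. Lama3, a chain of the laminin under epithelia, was at 2.08, 2.04 and 2.71 FPKM in ND and at 10.9, 9.05, 13.2 and 7.95 in FSP (log2 change 1.77, SE 0.16, limma adjusted p = 0.000411). Its partner chain Lamb3, at 5.82 ± 1.89 and 18.8 ± 4.44 FPKM, passed as well (adjusted p = 0.0298) but is not among the 16, and its call ended without any of ND 1, ND 2, ND 3, FSP 1, FSP 2 and FSP 3 (adjusted p up to 0.120). Tubb2a, a beta-tubulin, read 12.4, 11.02 and 9.43 FPKM in ND and 36.8, 50.7, 52.9 and 36.8 in FSP. Plek2, a pleckstrin that acts on actin, rose from 14.5 ± 0.798 to 42.4 ± 6.20 FPKM. Marcksl1, an actin-binding relative of MARCKS, was also apart from HFD. It stood at 10.5, 10.1 and 8.86 FPKM in ND, at 9.91 to 11.7 in HFD, and at 41.4, 31.5, 26.1 and 23.6 in FSP. FSP differed from both, by a log2 change of 1.52 from ND (limma adjusted p = 0.00209) and 1.41 from HFD (limma adjusted p = 0.0093). Lmna, which encodes the nuclear lamins A and C and is not among the 16, had the same order at a smaller size, with 24.2 ± 0.661 FPKM in ND, 26.6 ± 1.51 in HFD and 35.2 ± 2.85 in FSP (adjusted p = 0.0327 against ND and 0.0433 against HFD), and its call against ND ended without ND 1, ND 2, ND 3, FSP 1 or FSP 4 (up to 0.169).

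Ltc4s, Pmepa1 and Ifrd1 were the other higher genes of the 16. Ltc4s, the synthase of leukotriene C4 and a gene that tuft cells use, was nearly constant in ND at 4.00, 3.77 and 3.91 FPKM, and read 21.9, 19.9, 23.1 and 11.8 in FSP. HFD lay higher still at 28.4 to 50.8, and FSP differed from HFD as well (log2 change −1.05, limma adjusted p = 0.0253). Ltc4s was the only 1 of 9 tested tuft cell genes to pass in either direction. Of the 9, 7 had a log2 change below 0, Trpm5 among them at 2.03 ± 0.233 FPKM in ND and 1.10 ± 0.115 in FSP (adjusted p = 0.166). Pmepa1, a brake on TGF-beta signalling that TGF-beta itself induces, averaged 3.36 ± 0.268 FPKM in ND and 9.34 ± 0.810 in FSP. Ifrd1, a co-regulator of transcription induced by cell stress, went from 36.9, 36.2 and 29.1 FPKM in ND to 76.2, 88.6, 65.2 and 72.6 in FSP.

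Cyp2c55, a cytochrome P450 that is most at home in the colon, showed the largest lower change on the log2(FPKM + 1) scale among the genes that passed, though not by the ratio of means, where Pla2g4c, for example, was 38.7-fold lower. It stood at 72.8, 73.6 and 85.6 FPKM in ND and at 11.6, 10.3, 5.02 and 11.1 in FSP, 8.13-fold lower by the means (log2 change −2.95, SE 0.34, limma adjusted p = 0.00209), with HFD at 3.11 to 9.90. Its promoter is shown for its TATA box, in capitals, 29 bases before the start that the window uses (RefSeq, GRCm38.p6, plus strand, chr19:39006769-39007068). That start is not the outer end of the gene in RefSeq, which begins at 39006940, upstream of the TATA box. The TATA box letters TATAAA stood in 4 of 46 promoter windows of genes called lower (8.70%) and 11 of 73 of genes called higher (15.1%). Of all windows of tested genes 7.65% held them.
Cyp2c55: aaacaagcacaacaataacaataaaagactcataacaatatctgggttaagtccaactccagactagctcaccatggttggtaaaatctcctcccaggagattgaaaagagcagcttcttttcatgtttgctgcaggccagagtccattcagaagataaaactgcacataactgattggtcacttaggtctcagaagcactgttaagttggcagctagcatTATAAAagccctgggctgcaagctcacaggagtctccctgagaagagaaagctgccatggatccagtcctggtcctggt
Of 22 tested cytochrome P450 genes 2 were higher and Cyp2c55 was lower. Cyp2j6, which oxidises arachidonic acid and drugs, read 16.9, 20.1 and 23.3 FPKM in ND and 32.4 to 59.7 in FSP, and Cyp2d26 105 ± 26.7 and 226 ± 37.7. Both calls ended without ND 1, ND 2, FSP 1, FSP 3 or FSP 4 (adjusted p up to 0.183 and 0.229). Among genes of conjugation and export, the half-transporter Abcg2, which returns drugs and urate to the lumen, was lower, at 94.8, 91.0 and 60.9 FPKM in ND and 35.1, 40.4, 40.3 and 43.1 in FSP (adjusted p = 0.0232), a call that ended without ND 1, ND 2 or FSP 1 (up to 0.146). Limma called none of 24 genes of glutathione metabolism, 7 of which had an unadjusted p under 0.05. Gpx2, the glutathione peroxidase of the gut lining, had the widest gap there, at 706 to 938 FPKM in ND and 110.0 to 258 in FSP (log2 change −2.18, SE 0.56, adjusted p = 0.0937).

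**Figure D2:**
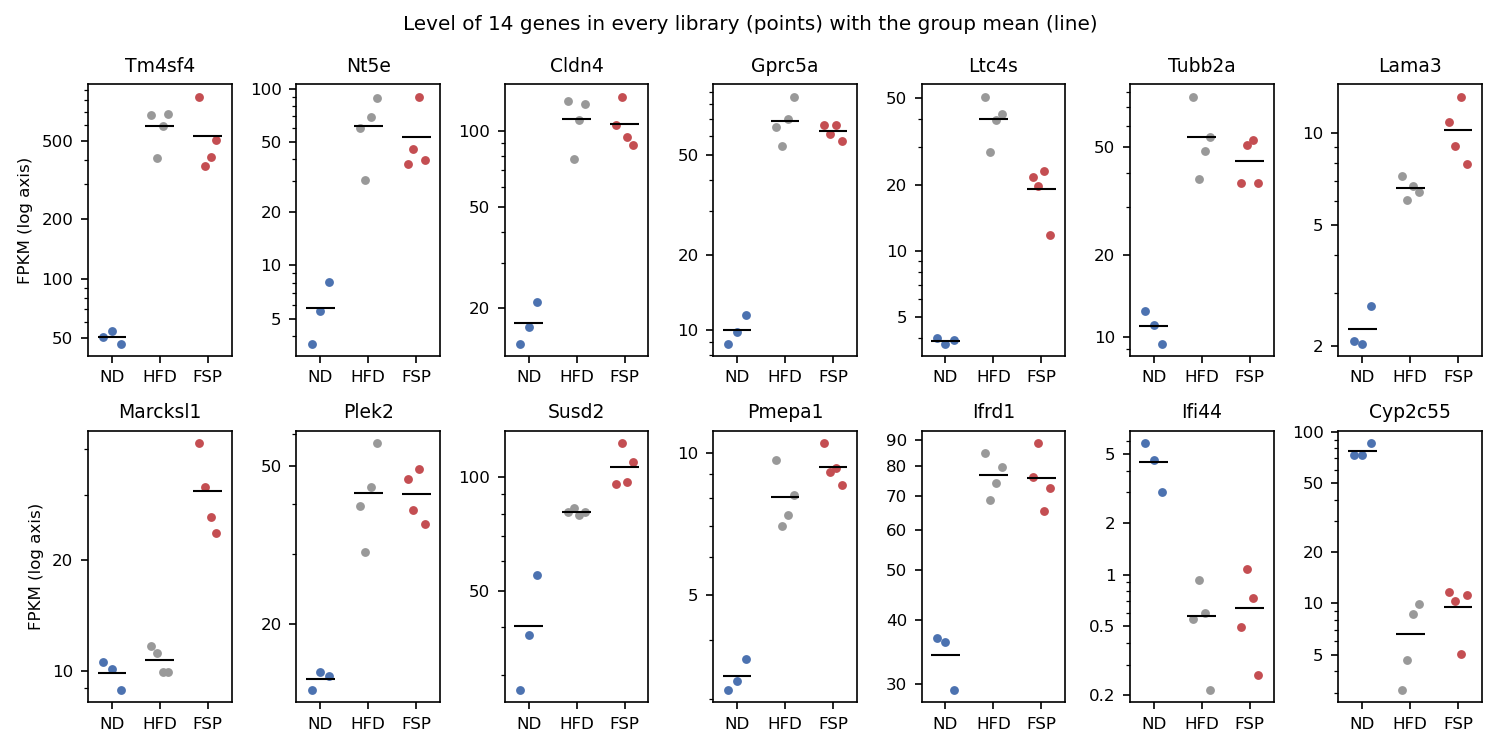
FPKM (log axis) of the 14 genes with an assigned symbol that passed without each single library, in every library of ND, HFD and FSP; points are libraries and lines are group means. FSP and ND do not overlap in any panel, and Marcksl1 is at the ND level in HFD (9.91 to 11.7) while FSP is at 23.6 to 41.4.

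Genes of fat absorption lay higher in FSP, as did the sum of the enterocyte markers given above, which share some of these genes, and few passed. Apoa4, the apolipoprotein that enterocytes add to chylomicrons, had the largest higher change on the log2(FPKM + 1) scale among the genes that passed, and a smaller ratio of means than Tm4sf4. It read 245, 1208 and 2837 FPKM in ND and 8307, 13808, 15071 and 7394 in FSP, with HFD at 15115 to 20758. The ND libraries were widely spread, and the log2 change of 3.49 had an SE of 0.62 (limma adjusted p = 0.0275). The call ended without ND 2, FSP 1 or FSP 2 (adjusted p up to 0.120), and with the position score as a covariate the log2 change was 2.15 (adjusted p = 0.118). It was the only 1 of 21 tested genes of triglyceride and chylomicron assembly to pass, while 20 of the 21 had a log2 change above 0 (37.3% of all tested genes did), with a list median of 0.36. Apoa1, another chylomicron apolipoprotein, averaged 8385 ± 2566 FPKM in ND and 13816 ± 2543 in FSP (adjusted p = 0.162). In fatty acid uptake and activation 1 of 12 passed and 11 lay above 0 (median 0.56). That gene, the acyl-CoA synthetase Acsl3, was at 5.02, 5.70 and 5.07 FPKM in ND and 11.3, 11.2, 25.6 and 12.1 in FSP, and its call ended without any 1 ND library or FSP 1 (up to 0.183). Acsl3 overlaps Utp14b, which was called higher too, so reads of the 2 may not be separable. The median of both lists shrank with the position score as a covariate, to 0.12 and 0.27. Some of that shrinkage may be built in, since 2 proximal genes of the score were themselves called higher.

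Fat storage and oxidation showed less. Cidec, a lipid droplet protein that merges droplets, read 12.2 to 32.2 FPKM in ND and 50.6, 53.4, 63.9 and 57.9 in FSP (adjusted p = 0.0301, with the call ended by leaving out any of 6 libraries, all but ND 3, up to 0.144). Of 35 genes of fatty acid oxidation and PPAR targets limma called none (8 at an unadjusted p under 0.05), and their median was −0.02, with 21 of the 35 below 0. With the position score as a covariate the median was −0.32, with 29 below 0. Of 15 genes of fatty acid synthesis none passed either (3 unadjusted), the nearest being the malic enzyme Me1, even within groups at 30.9 to 32.3 FPKM in ND and 10.3 to 13.9 in FSP (log2 change −1.30, SE 0.29, adjusted p = 0.0559). HFD stood at 17.5 to 53.6 for Me1, and FSP was lower than HFD (adjusted p = 0.0251).

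Vitamin and nucleoside uptake held several of the larger changes. In the list of retinoid and vitamin genes 3 of 20 tested were higher and none lower. Rbp2, which carries retinol inside enterocytes, read 913, 1502 and 2389 FPKM in ND and 5332, 7047, 8396 and 3789.8 in FSP (log2 change 1.98, SE 0.33, limma adjusted p = 0.0209). Rdh7, a retinol dehydrogenase, averaged 52.9 ± 22.9 and 158 ± 30.6 FPKM, and Slc23a1, the vitamin C transporter of the brush border, 8.29 ± 6.15 and 37.2 ± 10.1. All 3 calls ended without ND 1, ND 2 or FSP 1 (adjusted p up to 0.120, 0.109 and 0.146). Slc28a2, which takes up purine nucleosides, was at 5.71, 12.2 and 23.8 FPKM in ND and at 42.8, 51.5, 101 and 42.7 in FSP. With Nt5e it made 2 of 14 tested genes of purine and nucleoside handling. Its call ended without ND 1, ND 2, FSP 1 or FSP 2 (up to 0.169). In these 4 genes ND 3, the library with the lowest position score of its group, was the highest ND library. With the position score as a covariate Slc28a2 still passed (adjusted p = 0.0184), and Rbp2 (0.0505), Rdh7 and Slc23a1 (0.149 each) did not.

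Clca4a and Guca2b, 2 genes of the list of ion transport and guanylins, were higher. Clca4a, a chloride channel regulator of villus cells, stood at 143, 169 and 202 FPKM in ND and at 430.3, 536, 1087 and 500.2 in FSP, and Guca2b, which encodes the chloride-secretion peptide uroguanylin, averaged 1195 ± 205 and 2284 ± 539.9. The list held 23 tested genes, 13 of them below 0, with a median of −0.15. Clca4a lost its call without ND 1 or ND 2 (adjusted p up to 0.133), and Guca2b, at an adjusted p of 0.0498, without any library but FSP 4 (up to 0.270). The esterase Aadac (28.0 ± 19.9 and 124 ± 62.8 FPKM), the liver-expressed antimicrobial peptide gene Leap2 (82.7 ± 52.5 and 269 ± 68.4) and the Ly6 family member Ly6m (61.6 ± 17.0 and 263 ± 66.3) complete the 15 largest higher changes beside Jchain, described with the immune cells. The calls of Aadac and Leap2 ended without any library but ND 3 (up to 0.183 each), and that of Ly6m without ND 1 or ND 2 (up to 0.0750).

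Sterol and bile acid genes lay lower. Of 25 tested genes of the cholesterol synthesis list, 23 had a log2 change below 0 (median −0.47). Sqle, the squalene epoxidase, stood at 35.3 ± 14.7 FPKM in ND and 13.6 ± 5.01 in FSP (adjusted p = 0.109). Nr1h4, which encodes the bile acid receptor FXR, stood at 43.2, 40.0 and 22.7 FPKM in ND and at 10.6, 13.6, 11.8 and 16.5 in FSP (adjusted p = 0.0232), with HFD at 6.88 to 10.7. It was the only 1 of 9 bile acid genes to pass, and all 9 lay below 0. Fabp6, the ileal bile acid carrier, ran from 397 to 9821 FPKM in ND and from 40.1 to 2953 in FSP, with overlap and an adjusted p of 0.423. The call of Nr1h4 ended without ND 1, ND 2 or FSP 1 (up to 0.146). With the position score as a covariate it did not pass (0.220), and the medians of the 2 lists were −0.16 and −0.24. Nr1h4 and Fabp6 are among the distal genes of that score. That fit therefore adjusted them in part for their own levels, and some of the shrinkage in the bile acid list was built in.

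Interferon-dependent genes lay lower across nearly the whole list. Of 39 tested, 2 passed and 37 had a log2 change below 0 (62.7% of all tested genes did), with a median of −0.79 against −0.07 over all genes. In 16 the FSP libraries were all below the ND libraries, against 11% of all tested genes. The number of calls in the list was 10 without FSP 2, 5 without ND 3, 3 without FSP 3 and 1 without ND 1, ND 2, FSP 1 or FSP 4, and it was 6 with equal totals without mitochondrially encoded genes. Ifi44, an interferon-induced protein that is seen in antiviral responses, was at 5.78, 4.62 and 3.02 FPKM in ND and at 0.493, 1.07, 0.734 and 0.262 in FSP (log2 change −1.73, SE 0.23, limma adjusted p = 0.00490), with HFD at 0.213 to 0.932. Oas1a, the sensor of double-stranded RNA that activates RNase L, read 28.9, 28.0 and 18.4 FPKM in ND and 7.16, 16.6, 9.65 and 5.32 in FSP (adjusted p = 0.0490). Oas3 of the same family (9.25 ± 3.11 and 3.32 ± 1.52 FPKM) and the guanylate-binding Gbp6 (1.91 ± 0.940 and 0.349 ± 0.154) did not overlap between groups and had adjusted p of 0.0543 and 0.0551. The median of the list stayed between −0.99 and −0.69 without each single library, and was −0.69 with the position score as a covariate. Oas1a lost its call without ND 1, ND 2, FSP 1, FSP 3 or FSP 4 (up to 0.253).

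Tap1, a subunit of the peptide pump that loads MHC class I, was the only 1 of 21 MHC class I genes to pass, at 27.1, 27.8 and 24.2 FPKM in ND and 11.7, 16.0, 11.1 and 9.33 in FSP (adjusted p = 0.0490, ended without any library but FSP 2, up to 0.229). Of 12 MHC class II genes limma called none (5 at an unadjusted p under 0.05), and they split, with 8 below 0 and 4 above. H2-Aa stood at 653 ± 29.8 FPKM in ND and 219 ± 169 in FSP (adjusted p = 0.301). Lgals9, a galectin that interferon induces, falls outside the lists and is named because its promoter holds the response element. It read 256, 276 and 280.2 FPKM in ND and 99.2, 116, 158 and 144 in FSP (adjusted p = 0.0124), and its call ended without ND 1 or ND 2 (up to 0.0899). Of 46 promoter windows of genes called lower, 3 held the interferon-stimulated response element, searched on either strand as GAAA, any 2 bases and GAAA (6.52%), against 0 of 73 windows of genes called higher, 3.18% of all windows of tested genes and 21 of 36 windows of the interferon list (58.3%). A window spans 250 bases before to 50 after a start, and 99 of the 123 called genes had at least 1. The element was among several motifs searched, whose shares are given with the genes of immediate response, and no share was tested. The genes with the element were Oas1a, Lgals9 and Gm12250, and the first 2 are shown with the element in capitals (RefSeq, GRCm38.p6, minus strand for both, Oas1a at chr5:120907476-120907775 and Lgals9 at chr11:78984875-78985174). In Oas1a copies at 20 and 14 bases before the start that the window uses overlap, and in Lgals9 the element reads on the opposite strand. The RefSeq gene of Oas1a reaches to 120907544, beyond the start of its window.
Oas1a: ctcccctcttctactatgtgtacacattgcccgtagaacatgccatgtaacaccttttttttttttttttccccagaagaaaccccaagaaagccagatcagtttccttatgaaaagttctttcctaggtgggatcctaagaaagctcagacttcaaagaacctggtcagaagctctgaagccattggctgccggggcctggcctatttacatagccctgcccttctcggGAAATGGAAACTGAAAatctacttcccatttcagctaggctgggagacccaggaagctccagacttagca
Lgals9: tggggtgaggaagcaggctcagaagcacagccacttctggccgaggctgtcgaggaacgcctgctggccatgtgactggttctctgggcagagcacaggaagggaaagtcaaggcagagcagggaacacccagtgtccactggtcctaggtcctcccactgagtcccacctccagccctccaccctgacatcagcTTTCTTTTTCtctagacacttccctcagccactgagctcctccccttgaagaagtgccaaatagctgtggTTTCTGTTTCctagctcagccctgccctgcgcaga

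Genes of the cell cycle lay lower without passing. All 33 tested had a log2 change below 0 (median −0.61). In 19 every FSP library was below every ND library, against 11% of all tested genes. Limma called none, with 7 at an unadjusted p under 0.05, against 14.5% of all tested genes. Mcm4, part of the helicase that opens DNA for replication, stood at 8.40 ± 0.771 FPKM in ND and 4.24 ± 1.72 in FSP (adjusted p = 0.152). All 33 remained below 0 without each single library and under each other scaling. In the response to unfolded protein 1 of 28 genes passed, the chaperone helper Dnajb9, at 105, 86.6 and 98.7 FPKM in ND and 34.7, 54.2, 58.9 and 63.2 in FSP (adjusted p = 0.0490, ended without any library but FSP 4, up to 0.245). Galnt7, which adds O-linked sugars to mucin-type proteins, was the only 1 of 18 glycan genes to pass, at 21.8 ± 1.97 and 11.2 ± 1.77 FPKM (adjusted p = 0.0382, ended without any library but FSP 4, up to 0.189).

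The remaining large lower changes were mostly of genes at low levels. Ceacam10, a secreted member of the carcinoembryonic antigen family, stood at 7.78, 11.6 and 12.4 FPKM in ND and at 0.771, 2.12, 0.458 and 2.53 in FSP, and its neighbour Cd177 was lower as well. Pla2g5, a secreted phospholipase, read 3.15, 3.70 and 4.71 FPKM in ND and 0.421, 0.989, 1.63 and 0.375 in FSP. Pla2g4c, a cytosolic phospholipase, had ND values of 15.4, 8.48 and 0.911 FPKM against 0.0887 to 0.346 in FSP, so that ND 3 lay nearer to FSP than to its own group. Csta2, a cystatin (4.26 ± 1.92 and 0.393 ± 0.235 FPKM), and Nmu, the neuropeptide neuromedin U (5.41 ± 2.81 and 1.00 ± 0.653), also had ND 3 as the lowest of their group. At higher levels, Stom, which encodes the membrane protein stomatin, averaged 165.0 ± 9.86 FPKM in ND, 65.1 ± 19.4 in FSP and 33.0 ± 7.06 in HFD, and FSP differed from both (adjusted p = 0.0135 and 0.0288). Cd38, an NAD-consuming surface enzyme, averaged 65.5 ± 14.8 and 26.2 ± 4.69 FPKM, and Sgpp1, a phosphatase of sphingosine phosphate, 38.6 ± 14.2 and 14.1 ± 2.92. Glipr2 (7.40 ± 0.430 and 2.83 ± 1.18 FPKM) and Tmem252 (5.25 ± 1.42 and 1.72 ± 0.323) complete the 15 largest lower changes. Without ND 2 all of these calls ended, and without ND 1 all but that of Csta2 did. Over every library left out in turn their adjusted p reached 0.248 (Pla2g4c), and 0.0552 for Csta2.

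Genes of the clock and of immediate response were higher in part. Dbp, a clock output factor with a strong daily rhythm, read 17.2, 15.8 and 13.2 FPKM in ND and 42.7, 38.7, 29.5 and 30.9 in FSP (log2 change 1.14, SE 0.20, limma adjusted p = 0.0232), the only 1 of 16 clock genes to pass, while quantile normalization gave 5 calls in the list and median-ratio scaling gave 4. The list was split, with 9 of the 16 above 0 and 7 below (median 0.33). Per3 (0.787 ± 0.209 and 2.41 ± 0.541 FPKM, adjusted p = 0.0577) and Bhlhe40 (12.0 ± 3.61 and 27.3 ± 8.58, adjusted p = 0.0639) did not overlap between groups and missed the threshold. No label gives the hour at which tissue was taken. Jun, a subunit of the AP-1 factor, averaged 15.7 ± 2.69 and 29.0 ± 3.37 FPKM, and the antiproliferative Btg2 19.1 ± 5.16 and 35.9 ± 5.90. These were 2 of 25 immediate early and heat shock genes, and 19 of the 25 lay above 0. None of the 25 passed with median-ratio scaling or with equal totals, with or without mitochondrially encoded genes, and the calls of Jun, Btg2 and Il15 each held under 1 of the 4 other scalings. Il15, a cytokine that sustains intraepithelial lymphocytes, was even in ND at 6.18, 6.19 and 6.40 FPKM and stood at 12.5, 13.4, 11.2 and 9.73 in FSP, 1 of 19 chemokines and cytokines. The calls of Dbp and Il15 ended without any ND library or FSP 1 (up to 0.120 and 0.146), that of Jun without any library but ND 3 (up to 0.216) and that of Btg2 without any but FSP 3 (up to 0.166). The AP-1 letters TGANTCA, which read the same on both strands, stood in 10 of 73 windows of genes called higher (13.7%), in 2 of 46 of genes called lower (4.35%) and in 5.39% of windows of all tested genes. In the interferon list, whose genes lay lower, 8 of 36 windows held them (22.2%).

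**Figure D3:**
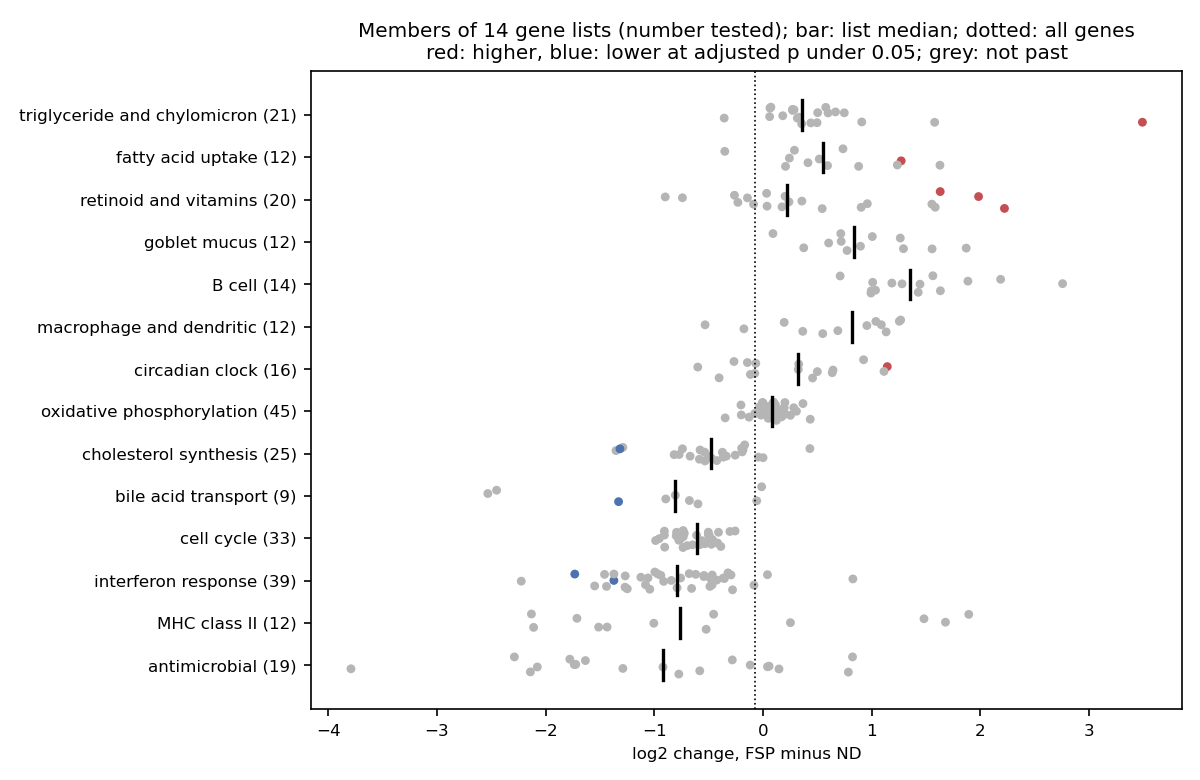
Log2 change (FSP minus ND) of the tested members of 14 gene lists, 1 point per gene, with red and blue for genes past an adjusted p of 0.05, black bars for list medians and a dotted line for the median of all genes (−0.07). All 33 cell cycle genes and 37 of 39 interferon genes lie below 0, and 20 of 21 genes of triglyceride and chylomicron assembly lie above it. Few members pass, 3 at most in a list (retinoid and vitamin genes).

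Gip did not pass in this comparison. It read 18.9, 30.8 and 48.3 FPKM in ND and 60.5, 86.9, 36.0 and 49.2 in FSP, so the groups overlapped, with HFD at 81.8 to 109. The log2 change was 0.84 (SE 0.31, 95% interval 0.16 to 1.52, limma adjusted p = 0.243). In ND the order of Gip followed the position score, with the library of the highest score the lowest. In FSP it did not, and FSP 3, the library with the lowest score of that group (−1.42), had the lowest Gip. A cause of either order was not tested. Limma called none of 20 tested enteroendocrine genes (4 at an unadjusted p under 0.05), and 8 lay above 0 and 12 below. Ghrl, the ghrelin gene, came nearest, at 3.14, 2.01 and 3.50 FPKM in ND and 5.89, 11.3, 5.95 and 5.79 in FSP without overlap (log2 change 1.05, SE 0.23, adjusted p = 0.0543). The prohormone convertase Pcsk1 averaged 3.40 ± 0.919 and 1.76 ± 0.430 FPKM (adjusted p = 0.193). Chga, the granule marker of these cells, was at 20.8 to 26.8 FPKM in ND and 24.3 to 34.0 in FSP. Of the hormone receptors and lipid sensors only Ffar4 was tested (adjusted p = 0.571). The other 8, Gipr, Glp1r, Ffar1, Ffar2, Ffar3, Gpr119, Gpbar1 and Casr, averaged under 1 FPKM, and none passed an exact permutation test (two-sided, adjusted p over the 8 of 0.686 to 0.971, smallest unadjusted p that the design allows 0.0286).

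Levels of immune, fat and muscle cell genes differed from piece to piece, with wide ranges within FSP. Jchain, the joining chain of secreted antibodies made by plasma cells, was higher in FSP, at 33.7, 39.1 and 62.1 FPKM in ND and 408, 697, 84.3 and 335 in FSP (log2 change 2.76, SE 0.56, limma adjusted p = 0.0418). The call ended without any library but FSP 3 (up to 0.228), and 1 of 6 tested plasma cell genes passed. All 14 tested B cell genes had a log2 change above 0 (median 1.35) and none passed, nor had any an unadjusted p under 0.05. Cd79a, part of the B cell receptor, did not exceed 1.47 FPKM in ND and stood at 95.3, 44.8, 0.733 and 4.07 in FSP 1 to 4. The summed level of 16 B cell genes was 3.14 to 6.77 FPKM in ND and 2.93 to 311 in FSP. In bulk tissue more cells of a type and more RNA per cell cannot be told apart.

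The 16 goblet genes summed to 2020 to 2916 FPKM in ND and 2357 to 13917 in FSP, with FSP 3 low: Muc2, the main mucin, read 9.88, 11.1 and 14.5 FPKM in ND and 39.2, 54.8, 8.43 and 42.9 in FSP (adjusted p = 0.262). Without FSP 3 the fit called 8 of 12 tested goblet genes, and with it none (5 at an unadjusted p under 0.05), with all 12 above 0 either way. The 19 adipocyte genes summed to 202 to 234 FPKM in ND and 272 to 845 in FSP. Adipoq, the fat cell hormone adiponectin, was at 1.16 to 2.05 FPKM in ND and at 13.2, 0.551, 2.11 and 28.0 in FSP, so FSP 1 and FSP 4 stood out. Smooth muscle genes summed to 518 to 749 FPKM in ND and 143 to 954 in FSP, lowest in FSP 2, and all 16 tested lay below 0 with none past (limma, 0 at an unadjusted p under 0.05). Without FSP 2, 11 of the 16 lay below 0. The part of these cell types in the other results was not tested.

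**Figure D4:**
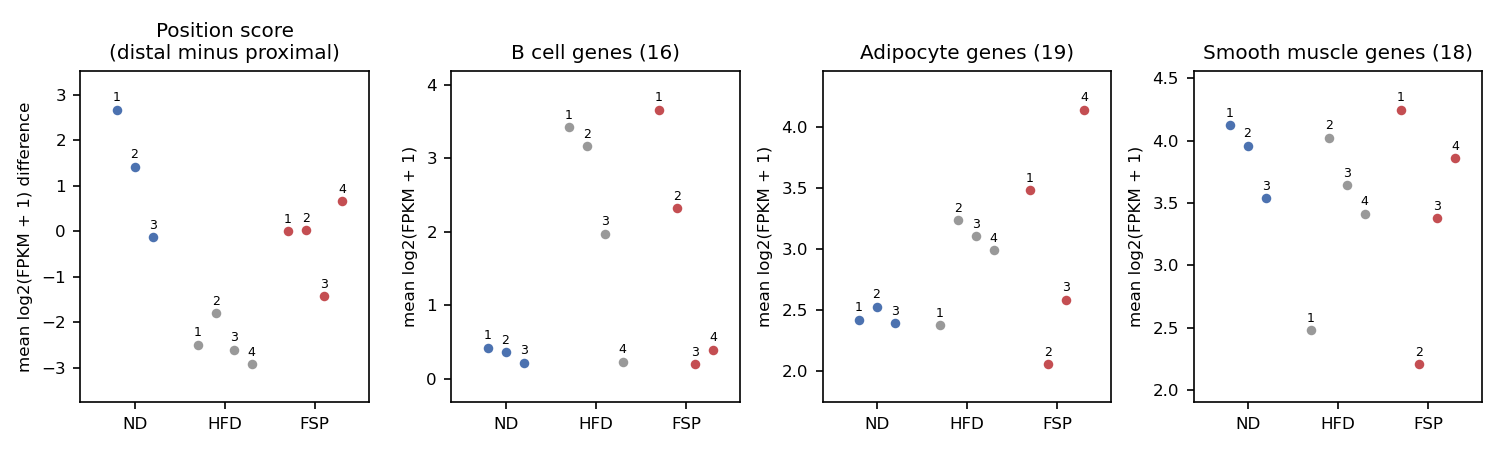
Position score and mean log2(FPKM + 1) of B cell, adipocyte and smooth muscle genes in each library, numbered by replicate, for ND, HFD and FSP. ND 1 and ND 2 have the highest position scores (2.67 and 1.42), FSP 1 and FSP 2 are high in B cell genes, FSP 1 and FSP 4 in adipocyte genes, and FSP 2 is the lowest in smooth muscle genes.

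Mitochondrially encoded genes took 16.3% ± 4.18 of summed FPKM in FSP (SD, n = 4) and 18.8% ± 3.04 in ND (SD, n = 3), a difference not past the test (exact permutation p = 0.429, two-sided). Of 45 nuclear genes of oxidative phosphorylation limma called none (1 at an unadjusted p under 0.05). Their median log2 change was 0.09, and 34 lay above 0 (37.3% of all tested genes did), a count that ran from 26 to 41 under other scalings and was 18 without ND 1 and 15 with the position score as a covariate. All 123 called genes had a position in RefSeq (GRCm38.p6), and 11 pairs of them lay within 1 Mb of each other, 7 of these in the same direction. In 2 pairs, Acsl3 with Utp14b and Gm42113 with U90926, the genes overlap, so their values may share reads.

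**Figure D5:**
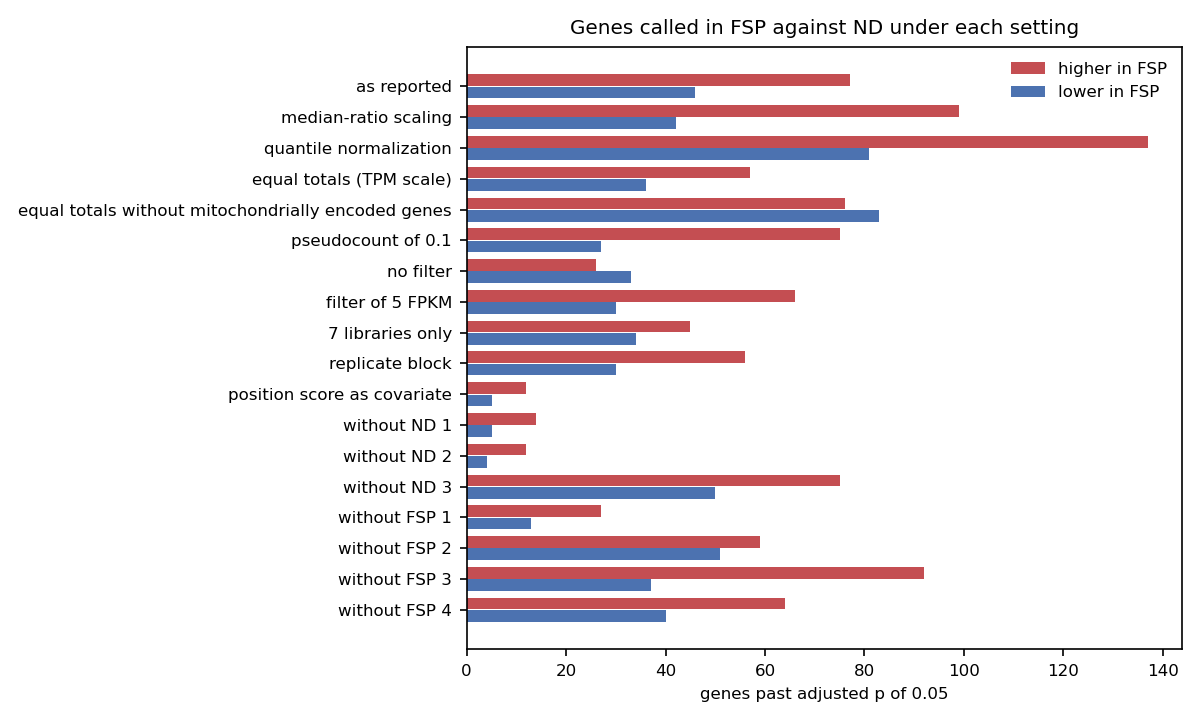
Number of genes past an adjusted p of 0.05, higher (red) and lower (blue) in FSP, under each setting; the fit with array weights (463 and 631) is beyond the axis and left out. Leaving out ND 1 (14 and 5) or ND 2 (12 and 4) and adding the position score as a covariate (12 and 5) give the lowest counts, against 77 and 46 as reported.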

How the data were processed

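RNA sequencing of mouse small intestine gave 4 FSP, 3 ND and 4 HFD libraries, grouped and numbered by their titles. Per the labels, TRIzol was used for RNA and a kit (VAHTS Universal V6 RNA-seq) for the libraries. The tools HISAT2, HTSeq, fastp and R 3.2.0 and the build mm10 stand in the submitters' processing notes, without their roles. Annotation and strand setting: not given in the sources used here. FPKM per gene and library were deposited by the authors, and each value is relative to each library's total, so a share taken by 1 class of RNA lowers all other genes. The single-library tables held the values of the joint table.

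Values were tested as log2(FPKM + 1), which understates changes of low genes, with limma 3.58.1 (R 4.3.3) in 1 fit of 3 groups and 11 libraries with an intensity trend, for genes averaging at least 1 FPKM over the 7 libraries. Adjusted p-values are Benjamini-Hochberg over 10371 genes, two-sided. Folds are ratios of mean FPKM. Exact permutation tests used all 35 arrangements. Fragment totals came from low values of 658 single-exon genes, 75.7% to 79.2% of which (up to 10 fragments, ND and FSP) lay within 0.05 of a whole fragment. The fit was tested on simulated data.

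The 15 largest named changes in each direction, Gip, and the members with the smallest p (up to 4) and those past the threshold of each list described are named. Unnamed gene models (12 of the calls) were counted, and 1 gene that the rule names is not reported here. The members, the lists, some of which share genes, and the rules were chosen with earlier results of these data known. Other scalings, pseudocounts, filters and left-out libraries were tried.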

Additional observations from a re-analysis of the deposited data

Results flagged for a closer look

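In 10 of 125 results checked, 1 FSP library stood apart from the other 3 by more than Dixon's 95% critical value for 4 samples, which chance alone would give in about 1 of 20 groups. FSP 3 was the high library for Nt5e (90.1 FPKM, the others 37.7 to 45.7), Slc28a2 (101 FPKM, the others 42.7 to 51.5), Clca4a (1087 FPKM, the others 430.3 to 536), Acsl3 (25.6 FPKM, the others 11.2 to 12.1) and Utp14b (6.74 FPKM, the others 2.42 to 2.63), of which the last 2 overlap in the genome. It was the low library for Tmem252 (1.24 FPKM, the others 1.85 to 1.92). FSP 4 was high for Sgpp1 (18.4 FPKM, the others 12.1 to 12.9) and Cd177 (0.714 FPKM, the others 0.287 to 0.315), and low for Cox7a1 (159 FPKM, the others 232 to 238). FSP 2 was low for Bmp8b (1.58 FPKM, the others 1.80 to 1.81). All 10 genes were called, but the results checked were the 123 called genes, Gip and the mitochondrial share, so this follows from the choice. In these genes the distance of that library was not tested against any cause.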

How the results depend on the processing

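No call changed direction under any setting. With quantile normalization 137 genes were higher and 81 lower, without mitochondrially encoded genes in the total 83 were lower, and at a pseudocount of 0.1 27 were lower. Without a filter on low values 26 were higher over 23346 genes, and with a filter of 5 FPKM 30 were lower over 6174 genes. The 7 libraries fitted alone gave 45 higher. Array weights, which gave ND 2 a weight of 10.98 and HFD 3 10.25, gave 463 higher and 631 lower; the cause was not tested. The replicate number as a block gave 56 higher and 30 lower, with 69 of the 123 calls shared. Same-numbered libraries deviated together in 2 of 3 pairs (correlations 0.179, −0.0979 and 0.205). Pairs of unlike number ran from −0.312 to 0.290, so these few correlations cannot decide whether the numbers pair the samples. The position score as a covariate gave 12 higher and 5 lower. Leaving out 1 library at a time gave 12 to 92 higher and 4 to 51 lower, the lowest without ND 2 or ND 1, while without ND 3 there were 75 and 50. With 1 library left out, the exact test of the mitochondrial share could not reach 0.05. What depth limits in these calls was not tested.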
